A study of Mus musculus with 4 samples.

Results

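Accessibility at 31 genes of the cell cycle and DNA replication was described after knockdown of the histone chaperone gene Hira in a line of mouse melanoblasts, melb-a. The genes were taken from a list of names, and every peak whose nearest annotated transcription start site (TSS) belonged to a listed gene counted as a member. This gave 104 of the 70436 peaks in the table, with 1 to 16 peaks per gene and all 31 genes represented. ATAC-seq, in which a transposase inserts adapters into open DNA, was run on 4 libraries of labelled wild-type genotype, each from cells transduced with a different lentiviral short hairpin RNA and selected with puromycin. The control arm carried hairpins against luciferase (shLuciferase, control 1) or of scrambled sequence (shScramble, control 2), and the Hira arm carried shHIRA I or shHIRA II (hairpins I and II). All cells were grown in serum with SCF and Fgf2. The arms thus shared the line, the medium, the virus type and the selection, and each hairpin was read in a single library. The Hira columns of the peak table are named ko, although the labels describe hairpins.

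Cells divide after a chain of steps that these genes carry out. Mitogens raise Myc and the D-type cyclins, which with Cdk4 and Cdk6 release the E2F transcription factors. E2F then drives cyclin E and the genes of replication, among them the MCM proteins that form the replicative helicase. Later the G2 and mitosis genes, controlled through CCAAT boxes and the cell cycle genes homology region (CHR), bring the cell through division. Melanoblasts expand by division before they become pigment cells. A peak in an ATAC-seq table measures how open the DNA is and not how much RNA a gene makes.

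The sequences below show matches to control elements known from replication genes and mitotic genes, at promoters of the list that hold such matches. Each line holds the 200 bases before the annotated start in RefSeq's GRCm38.p6, which is the mm10 assembly of the peak table, written 5′ to 3′ on the strand of the gene. Capitals mark matches to the E2F motif (TTTGGCG or TTTCGCG), the CHR (TTTGAA or TTCGAA) or the CCAAT box (CCAAT), each searched on both strands. Mcm5, Mcm6 and Cdc25a stand for E2F matches, and Cdk1, Top2a, Ccnb2 and Cdc20 for CHR and CCAAT matches.
Mcm5: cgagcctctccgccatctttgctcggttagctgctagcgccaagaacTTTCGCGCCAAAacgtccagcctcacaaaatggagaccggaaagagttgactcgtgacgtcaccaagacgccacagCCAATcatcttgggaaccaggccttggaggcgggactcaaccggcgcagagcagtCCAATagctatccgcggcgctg
Mcm6: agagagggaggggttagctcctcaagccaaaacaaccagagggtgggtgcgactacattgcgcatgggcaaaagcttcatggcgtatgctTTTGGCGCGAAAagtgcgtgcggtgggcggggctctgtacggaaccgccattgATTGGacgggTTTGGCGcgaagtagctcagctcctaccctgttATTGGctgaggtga
Cdc25a: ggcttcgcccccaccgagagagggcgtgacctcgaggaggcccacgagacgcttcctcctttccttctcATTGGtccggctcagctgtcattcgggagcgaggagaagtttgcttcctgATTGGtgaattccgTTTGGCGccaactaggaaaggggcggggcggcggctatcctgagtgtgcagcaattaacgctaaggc
Cdk1: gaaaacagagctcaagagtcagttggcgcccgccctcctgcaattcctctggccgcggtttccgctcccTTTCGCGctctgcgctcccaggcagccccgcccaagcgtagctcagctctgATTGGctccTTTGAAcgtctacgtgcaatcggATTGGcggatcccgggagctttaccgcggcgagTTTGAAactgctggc
Top2a: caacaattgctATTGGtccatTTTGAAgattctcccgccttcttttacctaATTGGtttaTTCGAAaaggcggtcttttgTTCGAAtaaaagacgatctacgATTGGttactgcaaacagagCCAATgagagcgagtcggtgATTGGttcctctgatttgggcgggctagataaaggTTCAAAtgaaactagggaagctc
Ccnb2: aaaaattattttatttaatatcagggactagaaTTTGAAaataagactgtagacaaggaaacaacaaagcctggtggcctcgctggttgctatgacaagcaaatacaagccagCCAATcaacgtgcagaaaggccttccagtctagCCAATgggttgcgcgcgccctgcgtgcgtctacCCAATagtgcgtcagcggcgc
Cdc20: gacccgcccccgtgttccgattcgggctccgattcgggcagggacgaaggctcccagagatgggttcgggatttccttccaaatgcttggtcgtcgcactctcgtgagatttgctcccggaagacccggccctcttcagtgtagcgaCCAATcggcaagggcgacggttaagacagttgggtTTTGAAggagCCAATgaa
The stretches lie at chr8:75109309-75109508 (plus strand, Mcm5), chr1:128359706-128359905 (minus, Mcm6), chr9:109875379-109875578 (plus, Cdc25a), chr10:69352913-69353112 (minus, Cdk1), chr11:99024190-99024389 (minus, Top2a), chr9:70421555-70421754 (minus, Ccnb2) and chr4:118437344-118437543 (minus, Cdc20). TTCGAA reads the same on both strands and was counted once. In Mcm5 and Mcm6 a pair of E2F matches on opposite strands overlap and read as 1 run of capitals. Cdk1 holds 1 E2F, 2 CHR and 2 CCAAT matches, and Top2a 4 CHR and 5 CCAAT matches.

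RefSeq promoter windows of 300 bases (250 before the start and 50 after it) were found for 24 of the 31 genes, 26 windows in all, since E2f2 and Mcm7 have 2 each. No window was in the table for Ccna2, Ccnd1, Ccnd2, Ccne2, Mcm4, Aurkb and Myc. An E2F match was in 7 of the 26 windows (26.9%), against 2.37% of all 32851 windows and 4.39% of the 12435 windows that lay under a peak. It was in 1 of the 8 windows of G2 and mitosis genes (Cdk1) and in 6 of the other 18. Of the replication genes with a window, Mcm3, Mcm5, Mcm6 and Mcm7 held a match, while Cdc6, Mcm2, Pcna, Rrm2 and Tyms held none. A CHR match was in 7 of the 8 windows of G2 and mitosis genes and in 3 of the 18 windows of the other members, against 19.2% of all windows and 13.0% of those under a peak. The CCAAT box was in all 8 mitotic windows and in 12 of the other 18 (37.4% of all windows). The GC box (GGGCGG) was in 22 of the 26, against 35.7% of all windows and 64.7% of those under a peak. These are letter matches only, and no binding was measured. Of the 26 windows 25 lay under a peak of the table. The exception was Cdc20, which encodes the activator of the anaphase-promoting complex: its window lay under no peak of the table, although it holds a CHR and 2 CCAAT boxes.

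Total tags in peaks ranged from 8910983 (hairpin II) to 20716859.5 (control 1), so values under hairpin II are the least precise. Controls 1 and 2 agree within sampling noise, so their tags were summed to make 1 sample: their chi-square per peak was 0.933 over all peaks and 0.777 over 103 member peaks, against 6.24 and 4.08 for the Hira pair. Levels are given per library in CPM, the tags of a peak relative to the scaled library size. The fold change, SE, 95% interval and adjusted p come from edgeR's quasi-likelihood test of the 2 Hira libraries against the summed controls, fitted over all peaks, with Benjamini-Hochberg adjustment. A peak was called at an adjusted p under 0.05. The p-values measure only the spread between hairpins I and II, in which hairpin, culture and technical differences cannot be told apart. The fit estimates this spread partly from all peaks together, so the p of a peak does not rest on its own 2 hairpin values alone. Of 8 melanoblast markers 7 had a peak within 1 kb of the TSS (the exception was Ednrb), with 271.7 CPM summed in the controls and 258.4 and 263.9 under hairpins I and II. Single markers moved apart within this sum: Dct stood at 41.3 CPM in the summed controls against 14.2 and 23.2 under hairpins I and II, and Tyrp1 at 11.6 against 9.75 and 6.66. Sox10 stood at 23.1 against 32.4 and 27.5 CPM, and Erbb3 at 24.9 against 33.9 and 35.5. None of 4 keratinocyte and none of 4 blood markers had one. Of the fibroblast markers 2 of 4 did (Pdgfra and Twist2, 57.5 CPM summed in the controls, 73.0 and 67.1 under the hairpins), and of the endothelial markers 1 of 3 (Tek, 2.6 against 12.5 and 4.5 CPM). The part of other cells in the results below was not tested. In bulk libraries more cells with an open site and a more open site per cell cannot be told apart.

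In the test above the promoters of the cell cycle genes stood close to the control level under both hairpins. The member peaks that it called were weak sites far from a TSS. Under the authors' scaling, given below, the promoters and the bulk of all peaks both lay lower. None of the 31 member peaks within 1 kb of a TSS was called (in edgeR's quasi-likelihood test the smallest unadjusted p was 0.0591), and none of the 22 between 1 and 10 kb was (4 at an unadjusted p under 0.05), whereas of the 51 beyond 10 kb 8 rose and 3 fell. Among all peaks 1.94% of those within 1 kb, 14.3% of those between 1 and 10 kb and 17.3% of those beyond 10 kb were called (10.1% higher and 7.28% lower at the last distance). Over all distances 11 of 104 member peaks were called, against 14.1% of all peaks (8.43% higher and 5.65% lower), so the members' share lay near the background. The number of member peaks called changed with the test and the controls used: it was 0 with edgeR's default older quasi-likelihood estimate (smallest adjusted p 0.0704, with 15 peaks at an unadjusted p under 0.05), 0 in the DESeq2 Wald test (8 at an unadjusted p under 0.05), 0 without control 1 and 5 without control 2. With the control libraries entered as 2 samples it was 23. By a count that needs no test, 7 member peaks were at least 2-fold above the control and 3 at least 2-fold below it under both hairpins, and all 10 were among the 11 called. Over all peaks 8.35% and 5.91% met that rule.

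**Figure D1:**
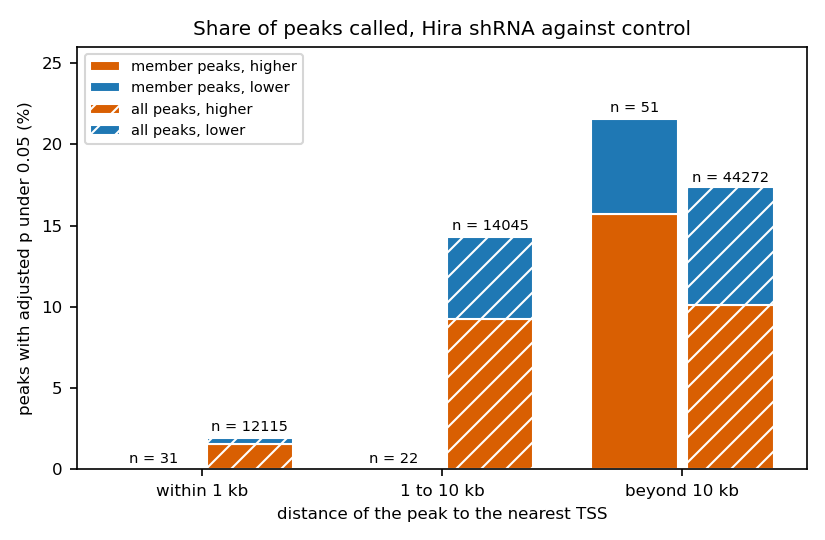
Share of peaks with an adjusted p under 0.05 (edgeR's quasi-likelihood test, %), by distance to the nearest TSS, for member peaks (plain bars) and all peaks (hatched), split into higher and lower under Hira hairpins; n is the number of peaks tested. Member peaks were called beyond 10 kb alone (8 higher and 3 lower of 51), while 17.3% of all peaks at that distance were called.

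Of the 31 genes 28 had a peak within 1 kb of a TSS, and the nearest one was taken as the promoter peak. The exceptions were Ccna2, encoding cyclin A, whose nearest peak lay 1.10 kb downstream in the 5′ UTR, Cdc20, whose 1 peak is not described here, and Ccnd2, encoding a D-type cyclin, with its nearest peak 49.4 kb upstream. Over the 28 promoter peaks the log2 fold changes ran from −0.28 (Ccne1) to 0.77 (E2f2), with a median of −0.04 and a quartile range of −0.12 to 0.15. Over 10353 promoters of protein-coding genes the median was −0.02 and the quartiles were −0.13 and 0.13. Positive and negative values were evenly split, 14 and 14. Both hairpins lay above both controls at 10 of the 28 and below both at 10, where 27.3% and 29.4% of all such promoters did so. The median half-width of the 95% interval was 0.39 and the widest was 0.91. These intervals are not adjusted for the number of peaks, and a call needed a change larger than the half-width of its peak. Changes of the size of the half-width or somewhat above it could thus be missed at this depth and spread. The level in the controls, set per kb of peak so that genes can be compared, ran from 5.73 CPM per kb (E2f2) to 106.3 (Mcm7), with a median of 38.3 against 29.6 for all such promoters. Both E2f2 extremes come from a weak peak (3.12 CPM in the summed controls) at an alternative annotated start. The stronger E2f2 peak in the 5′ UTR had 11.8 CPM per kb and a log2 fold change of 0.43.

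**Figure D2:**
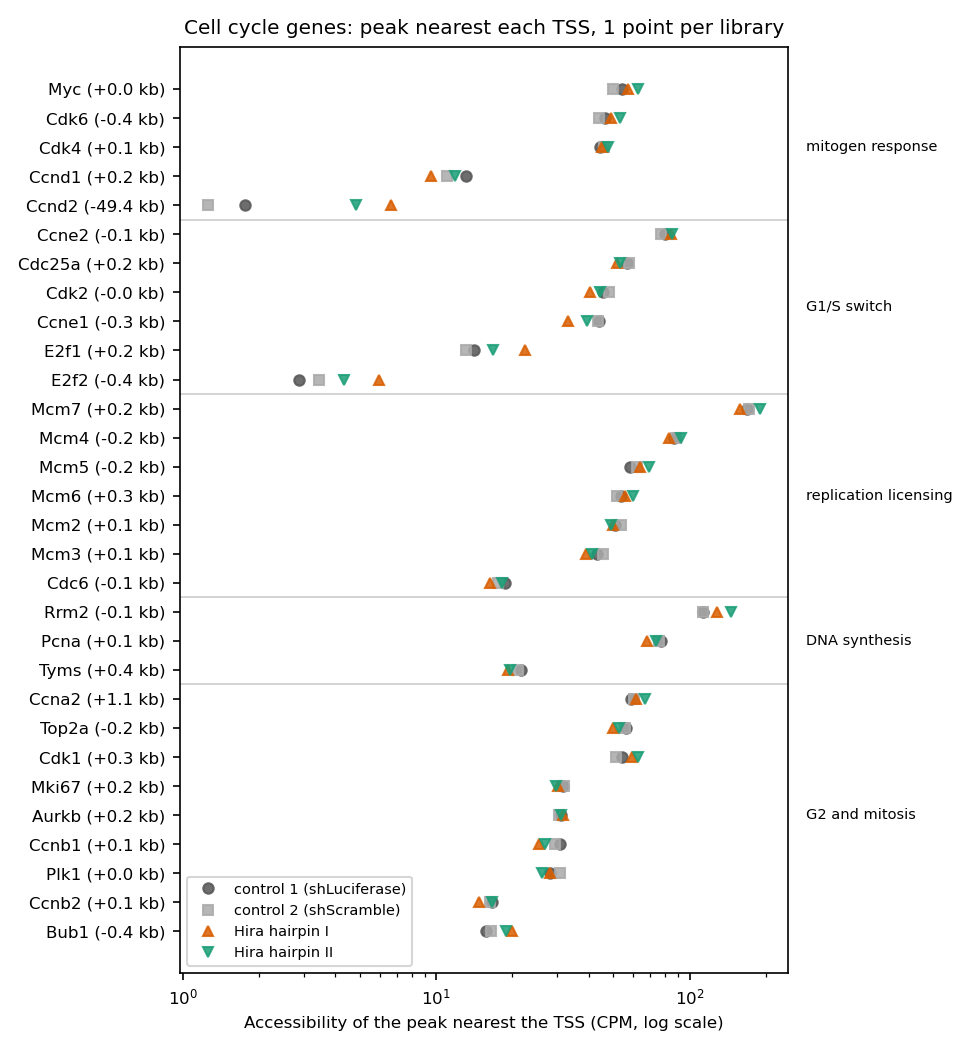
CPM (log scale) of the peak nearest each TSS for 30 of the genes (all but Cdc20), 1 point per library, grouped by role, with the signed distance to the TSS in kb beside the name. The 4 points of a gene lie close together at nearly all genes; those of Ccnd2, at 1.77 and 1.25 CPM in the controls and 6.60 and 4.84 under the hairpins, are far apart.

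The genes of the mitogen response, Myc, the D-type cyclins and their kinases, held 8 of the 11 calls (6 higher, 2 lower of 35 peaks), all of them at Ccnd1, Ccnd2 and Cdk6. All 8 lay beyond 10 kb, where Ccnd1 had 12 peaks, Cdk6 9, Ccnd2 2 and Myc 1. Among all peaks 14.1% were called, and 17.3% of those beyond 10 kb. Whether the roles differ beyond this mix of distances was not tested. At the promoter of Myc, the growth-promoting transcription factor, the peak (chromosome 15, 61984773 to 61985996) stood at 54.2 and 49.7 CPM in controls 1 and 2 and 57.1 and 62.8 under hairpins I and II. Both hairpins were above both controls, but the peak was not called (log2 fold change 0.19, 95% interval −0.17 to 0.55, adjusted p = 0.487). All 5 Myc peaks had a positive value, from 0.13 to 0.55. The peak in the gene body 2.34 kb from the TSS had 45.8 and 44.9 CPM in the controls and 70.2 and 58.4 under the hairpins (0.51, SE 0.17, adjusted p = 0.0852). The Cdk4 promoter, of the kinase partner of cyclin D, was among the steadiest, with 44.5 and 46.0 CPM in the controls and 45.3 and 47.5 under the hairpins (0.04, interval −0.34 to 0.42). At Cdk6, encoding the other cyclin D kinase, the promoter had 46.2 and 43.8 against 49.2 and 53.3 CPM (0.18, interval −0.20 to 0.55).

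Ccnd1, encoding cyclin D1, had the most peaks of any member: 16, of which 12 lay beyond 10 kb. Its 5′ UTR peak (chromosome 7, 144939587 to 144939886) had 13.1 and 11.0 CPM in the controls and 9.58 and 11.8 under the hairpins, so that the groups overlapped (−0.21, interval −0.87 to 0.45). Upstream of it the intergenic peaks moved in both directions. The peak 24.2 kb upstream (chromosome 7, 144963810 to 144964424) rose from 0.860 and 1.00 CPM in the controls to 5.21 and 4.10 under the hairpins (log2 fold change 2.37, SE 0.46, adjusted p = 0.0254). The peak 31.5 kb upstream rose from 1.55 and 1.72 to 8.43 and 4.15 CPM (2.04, SE 0.51, adjusted p = 0.0372). At both, every Hira value lay above both controls, and hairpin I gave the higher level. The peak 80.6 kb upstream (chromosome 7, 145020381 to 145020763) fell from 4.35 and 5.01 to 1.02 and 1.08 CPM (−2.12, SE 0.45, adjusted p = 0.0274). The next peak, 85.8 kb upstream, rose from 4.20 and 4.66 to 12.7 and 8.37 CPM (1.32, SE 0.37, adjusted p = 0.0496), and was the 1 call that stayed under 2-fold with a hairpin (hairpin II, log2 ratio 0.91). The Ccnd1 peak with the most tags in the controls beyond 10 kb, 54.1 kb upstream, stood at 37.9 and 42.0 CPM in the controls and 39.8 and 49.7 under the hairpins (0.16, adjusted p = 0.667).

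Ccnd2 had 2 peaks, 49.4 and 60.4 kb upstream in introns of a noncoding transcript, and they went opposite ways. The nearer (chromosome 6, 127200149 to 127200676) rose from 1.77 and 1.25 CPM to 6.60 and 4.84 (1.93, SE 0.44, adjusted p = 0.0307). The farther, in an ERV1 repeat, fell from 4.66 and 3.94 to 1.02 and 1.48 CPM (−1.86, SE 0.44, adjusted p = 0.0333). At Cdk6 a pair of weak upstream peaks rose. The peak 191 kb upstream went from 2.53 and 2.16 to 10.1 and 5.35 CPM (1.77, SE 0.46, adjusted p = 0.0414), and the peak 42.7 kb upstream from 1.38 and 0.845 to 6.70 and 2.73 CPM (2.17, SE 0.56, adjusted p = 0.0420). In contrast, the 5 intronic Cdk6 peaks all had negative values, from −0.30 to −1.24, and none was called. Those 56.3 and 61.4 kb from the TSS had 16.0 and 16.4 against 5.32 and 11.5 CPM (−1.06, adjusted p = 0.103) and 12.0 and 13.3 against 6.97 and 7.17 CPM (−0.83, adjusted p = 0.104). The authors' deposited table calls the latter lower, with a log2 fold change of −1.095.

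**Figure D3:**
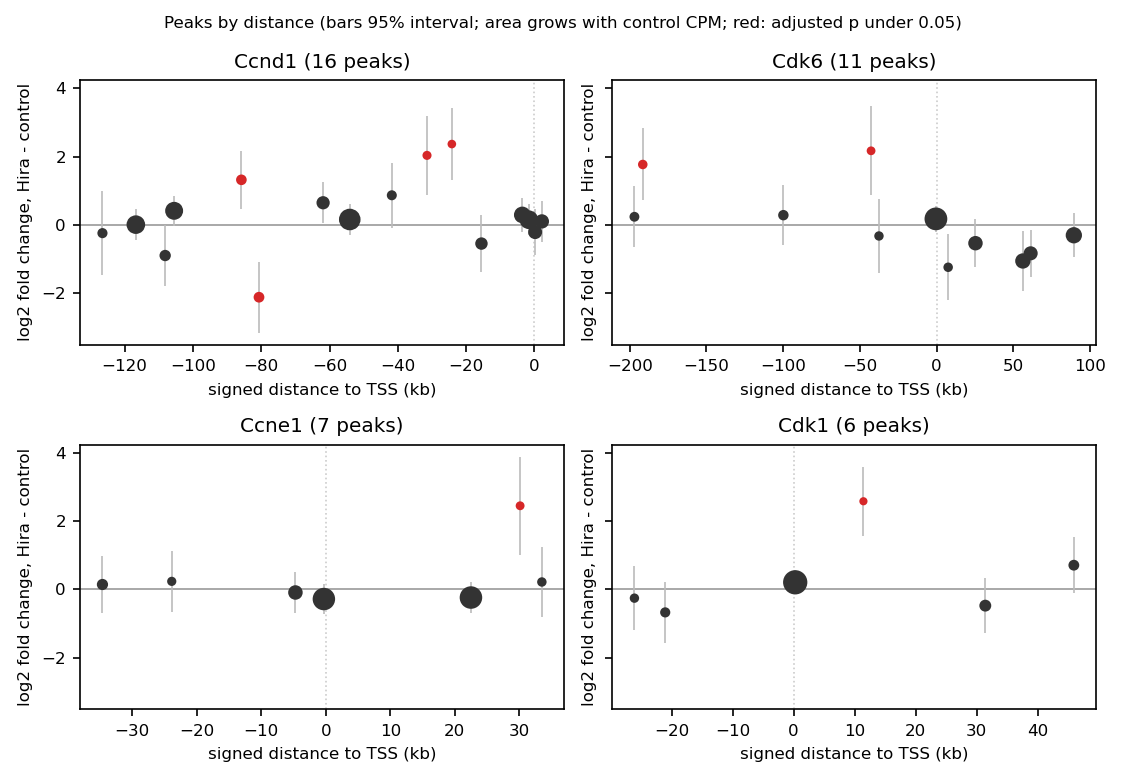
Log2 fold change (Hira minus control) of every peak of Ccnd1, Cdk6, Ccne1 and Cdk1 against its signed distance to the TSS in kb, with 95% intervals; dot area grows with the control CPM and red marks an adjusted p under 0.05. Large dots lie near 0 and the called peaks are small ones, as the Ccnd1 peak 24.2 kb upstream at a log2 fold change of 2.37.

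At the genes of the G1/S switch 1 of 23 peaks was called. It lay 30.1 kb downstream of Ccne1, encoding cyclin E1, at chromosome 7, 38077192 to 38077538, and rose from 1.36 and 1.19 CPM to 9.78 and 3.13 (2.45, SE 0.63, adjusted p = 0.0401). The hairpins differed here, hairpin I lying at a log2 ratio of 2.85 and hairpin II at 1.23. The Ccne1 promoter peak went from 44.0 and 43.5 CPM to 33.1 and 39.3, below both controls under both hairpins, and was not called (−0.28, interval −0.71 to 0.14, adjusted p = 0.371). Ccne2, encoding cyclin E2, stood at 79.8 and 77.5 against 84.7 and 85.6 CPM (0.11, interval −0.20 to 0.42). Cdk2, encoding the kinase that cyclin E activates, had 45.7 and 48.2 against 40.6 and 44.5 CPM (−0.15, interval −0.54 to 0.25). Cdc25a, encoding the phosphatase that activates Cdk2, had 56.5 and 57.4 against 51.9 and 53.2 CPM (−0.12, interval −0.47 to 0.24).

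The E2f1 and E2f2 peaks had the most positive promoter values among the members, but none was called. These genes encode the activating E2F factors. The E2f1 peak in the 5′ UTR, 0.177 kb from the TSS, had 14.1 and 13.1 CPM in the controls and 22.4 and 16.7 under the hairpins (0.55, interval −0.05 to 1.16, adjusted p = 0.207). A stronger E2f1 peak 0.241 kb upstream stood at 33.6 and 35.2 against 31.6 and 32.9 CPM (−0.09, adjusted p = 0.809), so that neighbouring peaks of the promoter did not share a sign. E2f2 had its nearest peak 0.444 kb upstream of an annotated start, with 2.87 and 3.44 against 5.92 and 4.33 CPM (0.77, interval −0.14 to 1.68, adjusted p = 0.243). At its stronger peak in the 5′ UTR the values were 23.2 and 22.7 against 34.2 and 27.0 CPM (0.43, adjusted p = 0.237). In the first intron, 2.46 kb from the TSS, they were 8.12 and 7.79 against 16.6 and 12.2 CPM (0.89, SE 0.30, adjusted p = 0.0863). Apart from the stronger E2f1 peak, every Hira value named here lay above both controls, with hairpin I higher than hairpin II. The peaks named beyond the nearest ones were chosen after their values were seen. All 6 E2f1 peaks ran from −0.35 to 0.55, and all 6 E2f2 peaks from −0.03 to 0.89.

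The replication licensing genes held 10 peaks with no call and the narrowest spread of promoter values, −0.15 to 0.15 over 7 genes. Only 1 of these peaks, at Cdc6, lay beyond 10 kb, the distance that held all member calls. Mcm2 to Mcm7 encode the subunits of the helicase, and Cdc6 the factor that loads it. Mcm7 was the most accessible promoter of all members per kb of peak, at the 98.9th percentile of protein-coding promoters, with 169.2 and 171.1 CPM in the controls and 158.2 and 189.9 under the hairpins. The hairpins lay on either side of the controls there (0.03, interval −0.27 to 0.33). This peak also covers the promoter window of Ap4m1, and the Mcm4 peak was annotated to the start of Prkdc, so accessibility at these divergent starts cannot be assigned to a single gene. Mcm4 had 87.2 and 88.5 against 83.2 and 92.9 CPM (0.001, interval −0.32 to 0.32). Mcm5 and Mcm6, whose E2F matches are printed above, had 58.1 and 62.2 against 63.7 and 69.1 CPM (0.15, interval −0.20 to 0.49) and 53.5 and 51.5 against 55.5 and 59.8 CPM (0.13, interval −0.23 to 0.49). Mcm2 stood at −0.07, Mcm3 at −0.15 and Cdc6 at −0.08, with adjusted p of 0.828, 0.652 and 0.872. The weaker Cdc6 peak 14.1 kb downstream had 5.54 and 5.29 against 8.06 and 8.02 CPM (0.57, adjusted p = 0.315).

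Of the DNA synthesis genes, Rrm2, which encodes a subunit of ribonucleotide reductase, had the lowest adjusted p of any member promoter. Its peak (chromosome 12, 24707350 to 24709052) stood at 113.2 and 112.8 CPM in the controls and 128.8 and 145.8 under the hairpins (0.28, interval −0.01 to 0.57, adjusted p = 0.187). With the control libraries entered as 2 samples it was called (0.28, SE 0.07, adjusted p = 0.0327), whereas under the authors' scaling its value was −0.004 (adjusted p = 0.997). A peak 7.38 kb downstream had 4.78 and 3.94 against 7.24 and 11.2 CPM (1.00, adjusted p = 0.122), where hairpin II was the higher. The 9 Rrm2 peaks ran from −0.68 to 1.00. Pcna, encoding the polymerase clamp, had 77.2 and 75.9 against 67.8 and 73.8 CPM (−0.12, interval −0.45 to 0.21), and Tyms, encoding thymidylate synthase, 21.7 and 21.1 against 19.3 and 19.6 CPM (−0.14, interval −0.65 to 0.37). Both lay slightly below both controls under both hairpins.

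The 10 genes of G2 and mitosis held 25 peaks, of which 1 rose and 1 fell, both in introns. The peak in intron 5 of Cdk1, the mitotic kinase (chromosome 10, 69341339 to 69341595), rose from 0.215 and 0.376 CPM to 1.93 and 1.25 (2.58, SE 0.44, adjusted p = 0.0251). It rested on 4.5 and 6 tags in the controls and 28.5 and 11 under the hairpins. With the sums rounded to 10 and 40 tags, the ratio scaled for library size was 6.28, with an exact 95% counting interval of 3.08 to 14.1. From the mean CPM of the hairpins the ratio was 5.59. The peak in intron 10 of Bub1, a kinase of the spindle checkpoint (chromosome 2, 127816107 to 127816381), fell from 1.31 and 1.56 CPM to 0.203 and 0.228 (−2.69, SE 0.39, adjusted p = 0.0251). With 3 and 2 tags left under the hairpins, the ratio of Hira to control was 0.151 with an interval of 0.047 to 0.375. Their promoter peaks had positive values without a call: Cdk1 54.0 and 51.1 against 59.2 and 62.7 CPM (0.21, interval −0.15 to 0.56), and Bub1 15.7 and 16.5 against 19.9 and 18.8 CPM (0.28, interval −0.26 to 0.81).

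At the other mitotic genes the nearest peaks ran from −0.21 to 0.11 on the log2 scale. Mki67, which encodes the proliferation marker Ki-67, had 31.6 and 32.0 CPM in the controls and 30.2 and 29.8 under the hairpins (−0.08, interval −0.52 to 0.35). Its distal peaks 19.7 and 32.8 kb upstream stood at −0.02 and −0.06. A weak peak in exon 12, 17.8 kb from the TSS, had 0.788 and 0.876 CPM in the controls and 2.40 and 1.71 under the hairpins, above both controls without a call (1.40, SE 0.42, adjusted p = 0.0599). Top2a, encoding the topoisomerase that untangles sister chromosomes, had 56.4 and 55.6 against 50.0 and 52.9 CPM (−0.13, interval −0.49 to 0.23). The mitotic cyclin genes Ccnb1 and Ccnb2 stood at −0.21 (30.9 and 29.3 against 25.4 and 27.0 CPM) and −0.09 (16.6 and 16.3 against 14.7 and 16.6 CPM). Plk1, encoding a mitotic kinase, stood at −0.10 and Aurkb, the kinase of the chromosomal passenger complex, at 0.02. Ccna2 had 58.6 and 60.2 against 61.7 and 66.6 CPM (0.11, adjusted p = 0.707). The intergenic Aurkb peak 4.78 kb upstream had 105.1 and 105.5 CPM in the controls and 122.2 and 125.2 under the hairpins, above both controls without a call (0.23, adjusted p = 0.241).

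**Figure D4:**
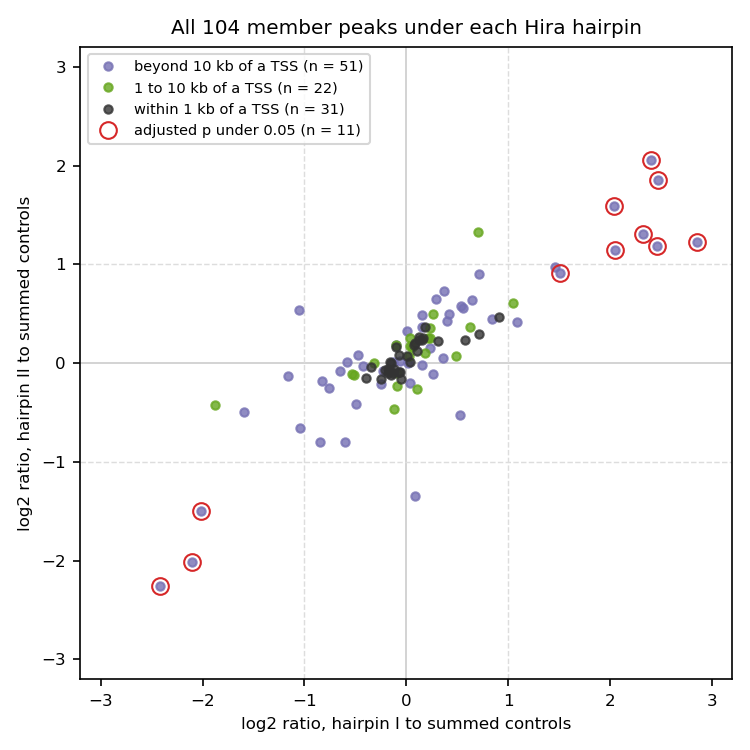
Log2 ratio of hairpin I (x) and hairpin II (y) to the summed controls for the 104 member peaks, coloured by distance to the TSS; rings mark an adjusted p under 0.05 and dashed lines 2-fold. Promoter peaks cluster near 0, and the 8 higher and 3 lower called peaks lie at the corners on the same side under both hairpins, which share the controls.

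The 11 called peaks had further features in common that the choice of genes did not use. The control level and the ratios under each hairpin also enter the call itself, so they are no separate support for it. All 11 were under 5 CPM in the summed controls, as were 35 of the 104 member peaks, and none of the 69 stronger member peaks was called. Among all peaks 20.5% of the peaks under 5 CPM and 8.93% of the stronger ones were called. Hairpin I lay further from the control than hairpin II at all 11. The share over all peaks was not counted, so this is not shown to be particular to the members. The gap was small at Bub1 (log2 ratios −2.42 and −2.26) and at the Ccnd1 peak 80.6 kb upstream (−2.11 and −2.01). With the 2-fold rule on a single hairpin, 19 member peaks passed with hairpin I and 12 with hairpin II. For this rule, too, the share over all peaks was not counted. Only 1 of the 11, at Ccnd2, lay in a repeat, and 10 of the 104 member peaks did so (15.3% of all peaks). The calls belonged to 6 genes, Ccnd1, Ccnd2, Cdk6, Ccne1, Cdk1 and Bub1. The other 25 had none, among them the 14 genes with a single peak. The authors' deposited table calls 7 of the 104 member peaks higher and 4 lower, and 10 of these 11 were called in the same direction here. Over all peaks that table calls 8.48% higher and 11.8% lower. Its rule was stricter than an adjusted p under 0.05. The Cdk6 peak 7.59 kb from the TSS stayed uncalled there at an adjusted p of 0.0111 in the authors' likelihood ratio test. Both sets of calls rest on the same tags.

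When tags were summed over all peaks of a gene, so that each gene gave 1 value, no member passed in edgeR's quasi-likelihood test across 18478 genes, and neither did any other gene (0.0% called, 3197 genes or 17.3% at an unadjusted p under 0.05). The members ran from −0.21 (Ccnb1) to 0.44 (E2f2) with a median of 0.03, against a median of −0.002 and an SD of 0.51 over all genes. The SD of the members was 0.16. Member peaks had a median of 13.4 CPM in the controls against 6.0 for all peaks, and the SDs were not compared at like depth. An unadjusted p under 0.05 was reached by 2 members. The first was Myc, with 131.2 and 123.5 CPM in the controls and 160.3 and 157.3 under the hairpins (0.31, interval 0.02 to 0.60, adjusted p = 0.259). The second was E2f2, with 50.3 and 50.7 against 75.8 and 60.5 CPM (0.44, interval 0.03 to 0.85, adjusted p = 0.262). Summed Ccnd1 accessibility was 208.3 and 207.7 against 238.5 and 247.1 CPM (0.22, adjusted p = 0.422). With the controls entered as 2 samples Ccnd1 and Myc passed, and the share over all genes in that setting was not counted. Under the authors' scaling no member passed, and none reached an unadjusted p under 0.05 in the same test. Mki67, at 110.6 and 112.7 against 106.6 and 110.7 CPM, stood at −0.04.

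The sign of small changes differed between library scalings. With scaling factors worked back from the log2 fold changes in the authors' deposited table, the median over all peaks was −0.30 and that of the 28 member promoters −0.33, with 2 of 28 positive. Relative to the bulk of peaks the promoters thus lay near 0 under either scaling. The share of calls over all peaks that were higher was 59.9% under TMM scaling, 34.3% under the authors' scaling and 92.1% in DESeq2. For the members the calls were 8 higher and 3 lower under TMM, and 9 and 9 under the authors' scaling, with all 11 peaks called in the same direction under both.

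The rest of the pathway was read from a list of 79 further genes that holds none of the members. Of them 76 had a peak, 224 peaks in all, of which 20 rose and 5 fell (11.2% called against 14.1% of all peaks). None of the 73 promoter peaks within 1 kb was called in edgeR's quasi-likelihood test (0 at an unadjusted p under 0.05), and their values ran from −0.29 to 0.36 with a median of −0.02. The lowest p among the rises was at Foxm1, encoding a transcription factor of mitotic genes, where a peak 1.87 kb from the TSS rose to 13.8 and 8.37 CPM under hairpins I and II from 1.58 in the summed controls (2.88, SE 0.46, adjusted p = 0.0251). A peak in an intron 18.9 kb from the TSS of Pola2, encoding a subunit of DNA polymerase alpha, rose from 1.26 to 16.7 and 7.91 CPM (3.382, SE 0.54). A weak peak 70.6 kb from Incenp, encoding a chromosomal passenger protein, rose from 0.163 to 0.643 and 1.08 CPM (2.35, SE 0.38). The falls with the lowest p were an intronic peak 8.02 kb upstream of E2f5, an E2F family member, from 2.14 to 0.203 and 0.569 CPM (−2.63, SE 0.48), a peak 23.5 kb upstream of the replication initiation gene Mcm10, from 1.53 to 0.271 and 0.512 CPM (−2.14, SE 0.40), and a peak 134 kb from Cdc7, encoding the kinase that fires origins, from 5.49 to 2.07 and 0.911 CPM (−1.77, SE 0.43, adjusted p = 0.0353). None of the 25 was called with edgeR's older estimate, and 6 were in DESeq2.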

How the data were processed

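Per the submitters' processing notes, the build was mm10 and the tools were MACS2 2.2.9.1, edgeR 3.38.4, cutadapt 2.3, Picard and Bowtie2, with no role stated. How duplicates, reads that map to several places and the transposase offset were handled is not given here. The deposited table holds tags per peak and library as estimated counts in steps of 0.5, which were summed over the control libraries and rounded before each test. Per the file headers it also holds the authors' log2 fold change and mean log2 CPM, a likelihood ratio score, and p-values with their adjustment; each peak carries the gene of the nearest TSS, so a distal peak may belong to another gene.

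Peaks were tested with edgeR 4.0.16 (R 4.3.3; TMM, filterByExpr, glmQLFit with the newer estimate, glmQLFTest), which tested 70432 peaks and all 104 member peaks. The size of the log2 fold change divided by √F gave each SE. Log2 ratios per hairpin used a prior of 2 tags, and CPM the TMM factors. The fit was also run on simulated data with the same spread for every sample. In the real data the hairpins differed far more than the controls, so that run does not show how the calls behave here. Library sizes are tags in peaks. The authors' scaling was recovered by least squares from 46005 peaks. Alternatives were DESeq2 1.42.0, edgeR's default older estimate, 2 control samples, scalings, filters and each library left out. The members, gene lists, motifs, the main estimate and the rule for named genes (each member at its peak nearest the TSS, called member peaks, and the 3 lowest p per direction in the pathway list) were chosen with earlier results of these data known. Peaks described beyond this rule were chosen after their values were seen. Sample columns were matched on their names (ko 1 and 2 to shHIRA I and II by number). Counting intervals are exact and cover counting error only. Promoter sequences are from RefSeq; figures were drawn with matplotlib 3.10.9. The peak assigned to Cdc20 is counted but its values are not reported here.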

Additional observations from a re-analysis of the deposited data

How the results depend on the processing

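The number of member peaks called, 11 of 104, became 23 with the controls as 2 samples, 0 with edgeR's older estimate, 21 with both, 0 in DESeq2, 18 under the authors' scaling and 0 to 5 with a control library left out. For all peaks the count of 9919 became 21721, 0, 17840, 2141, 19929 and 0 to 4904 under the same settings. For the pathway list 25 became 49, 0, 41, 6, 46 and 0 to 11. Among the peaks nearest the 31 genes 1 was called (Ccnd2), against 2 with the controls as 2 samples under either estimate, 0 with the older estimate, 0 in DESeq2 and 0 without either control. Gene sums gave 0 and, with the controls as 2 samples, 2 calls, a setting in which the calls over all genes were not counted. Under the authors' scaling they gave 0. At 1.5-fold 19 member peaks in place of 10 passed under both hairpins, and 9 to 19 with a library left out (19 without hairpin II). The older estimate with 2 controls and the fold rule on a single hairpin were added after seeing the data; the cause of these differences was not tested. Scaling by total tags, no filter and a filter at a mean of 20 tags gave 10, 11 and 8 member calls.

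Under the authors' scaling, whose median over all peaks was −0.30, uncalled promoter values turned negative at Myc (−0.10), Rrm2 (−0.004), Mcm4 (−0.287), Cdk4 (−0.26), Ccne2 (−0.18), Mcm7 (−0.25), Aurkb (−0.28), Mcm5 (−0.145), Mcm6 (−0.16), Cdk1 (−0.085), Cdk6 (−0.12), Bub1 (−0.022) and Ccna2 (−0.18). Mcm4, at 0.001, was also −0.002 with the controls as 2 samples and −0.022 by total tags, where Aurkb was −0.001. With a library left out Mcm4 ran from −0.076 to 0.082, Mcm7 from −0.10 to 0.16, Cdc6 from −0.154 to 0.004 and Ccnb2 from −0.164 to 0.013. The 11 called peaks kept their direction in every fit that tested them, 2 of them untested at a mean of 20 tags. Every fit used the same Hira libraries, so the kept direction is no separate support for the calls. Without a hairpin no spread is left within the Hira arm, so only values were taken. The column names number the libraries of both arms, but each number stands for a different hairpin and the labels do not pair them. The control difference and the hairpin difference correlated at −0.00728 over 70436 peaks (2 pairs). A replicate block on that number, with the controls as 2 samples, gave 24 member calls, 22058 calls over all peaks, 50 in the pathway list and 3 among the nearest peaks (Ccnd2, Rrm2, E2f1), with Mcm4 at −0.001; it was chosen after seeing the data and not run on gene sums.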
